A study of Mus musculus with 35 samples.

Results

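The genes examined here encode the respiratory chain and the ATP synthase of mitochondria, measured in microglia of the mouse spinal cord. They were chosen by symbol from the 45706 genes of the deposited tables: the Nduf subunits and their Ndufaf assembly factors (complex I), Sdha to Sdhd (complex II), the Uqcr genes (complex III), the nuclear Cox4 to Cox8 genes (complex IV), the Atp5 genes (complex V, the ATP synthase) and the 13 protein genes of mitochondrial DNA. Of the Nduf genes, Ndufa4 was counted in complex IV and not in complex I. Of 117 genes with such a symbol, 101 had a mean expected count of at least 10 over the 35 libraries and form the set. The set holds 88 nuclear genes and the 13 mitochondrially encoded genes. Complex I is covered by 37 nuclear and 7 mitochondrial genes, complex II by 4 nuclear genes, complex III by 8 and 1, complex IV by 13 and 3, and complex V by 16 and 2. A further 10 nuclear genes for assembly factors and associated proteins (Ndufaf1 to Ndufaf8, Cox7a2l and Atp5s) were kept apart from the subunits. All 101 passed the filter on low counts used for testing. Just inside the minimum stood Cox6b2 with a mean count of 12.7 and Ndufaf5 with 47.5, and just outside it Ndufab1-ps with 3.48 and Cox7a1 with 2.97. Ndufb4c, with a mean count of 297, is annotated as a processed pseudogene of a complex I subunit and stayed in by its symbol.

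All mice were rNLS8 mice, labelled (+/+), or wild-type (WT) littermates, labelled (-/-), of a mixed C57BL/6J X C3HeJ F1 strain, and all received doxycycline in the diet until 8 to 12 weeks of age. In rNLS8 mice the neuronal NEFH promoter drives the tTA factor, which switches on a human TDP-43 without its nuclear localisation signal once doxycycline is withdrawn, so the transgene is a neuronal one and microglia are studied as responders. Early disease comprised 7 rNLS8 mice at 2 weeks off doxycycline, late disease 7 at 6 weeks off, and recovery 7 at 6 weeks off followed by 1 week back on it. The 14 controls comprised 6 rNLS8 mice kept on doxycycline throughout, 4 WT mice at 2 weeks off, 1 WT at 6 weeks off and 3 WT at 6 weeks off and 1 week on. Cells of the whole spinal cord were sorted on CD11b and CD45, and each library is labelled as 1 mouse.

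Mitochondria make most of a cell's ATP by passing electrons from NADH and succinate through complexes I to IV to oxygen and using the proton gradient this builds to drive complex V. Complexes I, III, IV and V are mosaics of proteins from 2 genomes, since mitochondrial DNA encodes core membrane subunits and nuclear genes encode the rest, while complex II is nuclear throughout. Microglia at rest draw on oxidative phosphorylation, and reactive microglia are known to shift toward glycolysis. Nuclear respiratory factor 1 (NRF1), GABPA (also called NRF2 alpha) and YY1 are the transcription factors best known for binding promoters of nuclear respiratory chain genes.

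Promoters of the 3 nuclear genes that passed the test in a comparison below are shown first, so that the genes behind those calls can be seen with the 2 kinds of motif they hold. Each window runs from 250 bases before to 50 bases after the RefSeq start on the build GRCm38.p6, 5′ to 3′ on the strand of the gene, with motif letters in capitals. Ndufb11 lies at chrX:20617570-20617869, Atp5k at chr5:108434350-108434649 and Atp5e at chr2:174464052-174464351, all on the minus strand.
Ndufb11: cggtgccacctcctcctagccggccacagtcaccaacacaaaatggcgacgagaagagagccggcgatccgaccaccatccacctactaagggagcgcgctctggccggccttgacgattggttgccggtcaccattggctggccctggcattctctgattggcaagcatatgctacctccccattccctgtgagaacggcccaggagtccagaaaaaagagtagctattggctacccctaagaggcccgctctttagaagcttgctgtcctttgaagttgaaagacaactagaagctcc
Atp5k: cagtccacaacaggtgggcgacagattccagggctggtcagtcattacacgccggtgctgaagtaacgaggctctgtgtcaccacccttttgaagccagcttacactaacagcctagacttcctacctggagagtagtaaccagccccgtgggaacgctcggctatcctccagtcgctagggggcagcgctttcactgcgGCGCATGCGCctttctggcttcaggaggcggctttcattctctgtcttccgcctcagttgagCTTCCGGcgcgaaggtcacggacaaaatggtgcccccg
Atp5e: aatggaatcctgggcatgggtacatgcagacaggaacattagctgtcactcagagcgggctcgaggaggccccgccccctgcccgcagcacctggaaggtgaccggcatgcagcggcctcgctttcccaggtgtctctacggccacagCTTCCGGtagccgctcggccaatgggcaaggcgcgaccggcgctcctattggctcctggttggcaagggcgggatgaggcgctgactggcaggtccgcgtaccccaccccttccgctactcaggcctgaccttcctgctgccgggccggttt
The Atp5k window holds the NRF1 core (GCGCATG) once on each strand, the 2 matches overlapping in a run of 10 capitals, and 1 GABPA core (CCGGAAG, here read on the other strand as CTTCCGG). The Atp5e window holds 1 GABPA core on the other strand, and the Ndufb11 window holds neither these nor the YY1 core (AAGATGG). Of the 88 nuclear genes, 73 had a promoter of 300 bases in the RefSeq table, and both strands were searched. The NRF1 letters stood in 15 of the 73 (20.5%), against 1187 of all 26742 genes with a promoter (4.44%). The GABPA letters stood in 18 of the 73 (24.7%), against 2674 of all (9.999%), and the YY1 letters in 12 of the 73 (16.4%), against 1957 of all (7.32%). Complex I, with 32 promoters, held the YY1 letters in 7, and complex V, with 14 promoters, held the GABPA letters in 5. A match describes the letters of a window and not a bound site.

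Each library held between 13.9M and 20.4M expected counts, and the ranges of the groups overlapped. The 12 microglial markers, P2ry12 and Tmem119 among them, were all present, and their summed level was 61860 to 72570 CPM (counts scaled to the size of the library) in early disease, 47030 to 71570 in late disease, 62440 to 73070 in recovery and 65070 to 83090 in controls. Summed neuronal markers reached at most 4.39 CPM in any library. Other lists stood higher: over the libraries, summed astrocyte markers ran from 166 to 2732 CPM, oligodendrocyte markers from 147 to 243 CPM and B cell markers from 74.4 to 521 CPM. Which cells these counts came from was not tested. A 4-digit code in the sample names split the libraries: all 7 recovery mice carry 0803, 9 controls (all 6 rNLS8 and 3 WT) carry 0810, early and late disease carry 1019, 1102 and 1130, and the other 5 WT controls carry 1019 and 1102. Code and group therefore cannot be told apart for recovery. The share of TPM (a scale per transcript length with a fixed sum) that fell outside the deposited table was 2.32 to 4.58% in late disease, 3.01 to 5.52% in early disease, 4.09 to 8.86% in recovery and 3.76 to 30.8% in controls, and the code 0810 controls held the highest.

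Levels among the members are compared as TPM, which is per transcript length, averaged over the 35 libraries. The 13 mitochondrially encoded genes had a median of 870 TPM and the 88 nuclear genes a median of 106 TPM. The mitochondrial genes ran from 75.5 TPM for mt-Nd4l to 2153 TPM for mt-Atp6, which encodes the proton channel subunit of complex V. The 3 catalytic core genes of complex IV were close to one another, at 1974 TPM for mt-Co3, 1863 for mt-Co1 and 1667 for mt-Co2, and mt-Cytb, the mitochondrial subunit of complex III, stood at 1900 TPM. Mitochondrial complex I genes were lower, with a median of 357 TPM and only mt-Nd1, at 1689 TPM, in the range of the complex IV genes. Neighbouring mitochondrial genes overlap in the annotation (mt-Atp8 and mt-Atp6 by 43 bases, mt-Nd4l and mt-Nd4 by 7, and mt-Nd5 and the opposite-strand mt-Nd6 by 14), so in these unstranded libraries reads at the joins cannot be assigned to 1 of them.

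Among nuclear subunits, medians were 164 TPM for complex V, 158 for complex IV, 155 for complex II, 118 for complex III and 85.7 for complex I, against 17.2 for the assembly factors and associated proteins. The highest was Atp5b, the catalytic beta subunit of the ATP synthase, at 491 TPM, followed in complex IV by Cox4i1 at 347 TPM. Within complex I the range was 18.6 TPM for Ndufa11 to 221 TPM for Ndufb8, and within complex II 70.9 TPM for Sdhc to 194 TPM for the flavoprotein gene Sdha. Where subunits have tissue isoforms, the widely expressed form was the higher one in these cells: Cox6a1 at 312 TPM against 20.8 for the muscle form Cox6a2, and Cox6b1 at 278 TPM against 2.65 for the testis form Cox6b2. The muscle and lung forms Cox7a1, Cox8b and Cox4i2 and the hypoxia-linked Ndufa4l2 were under the minimum, with mean counts of 2.97, 0, 0.171 and 0.029. The 3 genes for the c subunit of the ATP synthase ring, which encode 1 mature protein, stood at 218 TPM (Atp5g3), 170 TPM (Atp5g1) and 106 TPM (Atp5g2).

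**Figure D1:**
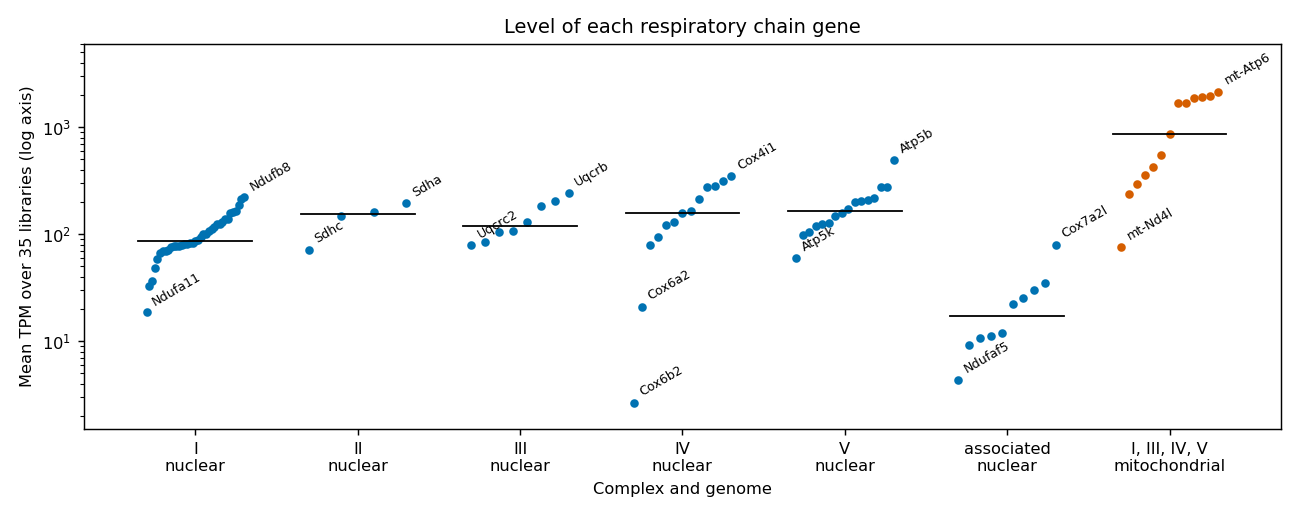
Mean TPM over 35 libraries of each of the 101 genes on a log axis, by complex, with nuclear genes in blue, mitochondrially encoded genes in orange and the median of each set as a black line. Mitochondrially encoded medians (870 TPM in all) lie above nuclear ones (106 TPM in all), and the associated proteins, at 17.2 TPM, lie lowest.

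Taking the 13 mitochondrial genes together, their mean log2 CPM was lowest in early disease and most spread in late disease. In early disease it ran from 7.25 through a median of 7.68 to 8.18, in late disease from 7.64 through 8.38 to 9.07, in recovery from 7.84 through 8.23 to 8.71 and in controls from 7.33 through 8.20 to 8.68. All 4 ranges overlap. Means were 7.68 ± 0.34 in early disease, 8.29 ± 0.58 in late disease and 8.26 ± 0.29 in recovery (SD, n = 7 each), against 8.19 ± 0.35 in controls (SD, n = 14). As a share of all counts the 13 genes held 0.577 ± 0.101% in early disease, 0.827 ± 0.287% in late disease and 0.762 ± 0.120% in recovery, against 0.739 ± 0.170% in controls. The mean log2 CPM of the 88 nuclear genes moved less between groups, at 5.24 ± 0.11 in early disease, 5.31 ± 0.15 in late disease and 5.46 ± 0.11 in recovery, against 5.29 ± 0.18 in controls. In bulk libraries, fewer cells with a transcript and less transcript per cell cannot be told apart.

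The controls were not uniform for the mitochondrial genes. The 6 rNLS8 controls ran from 8.22 to 8.68 with a mean of 8.47 ± 0.15. The 8 WT controls ran from 7.33 to 8.20 with a mean of 7.97 ± 0.30. The 2 kinds of control therefore did not overlap in this mean log2 CPM, by a narrow gap. As a share of all counts they did overlap, with rNLS8 replicate 9 at 0.700% and WT replicate 1 at 0.727%. All rNLS8 controls carry code 0810, while the WT controls are spread over 0810, 1019 and 1102. The nuclear genes overlapped between the 2 kinds of control, at 5.35 ± 0.19 in rNLS8 and 5.24 ± 0.17 in WT controls.

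**Figure D2:**
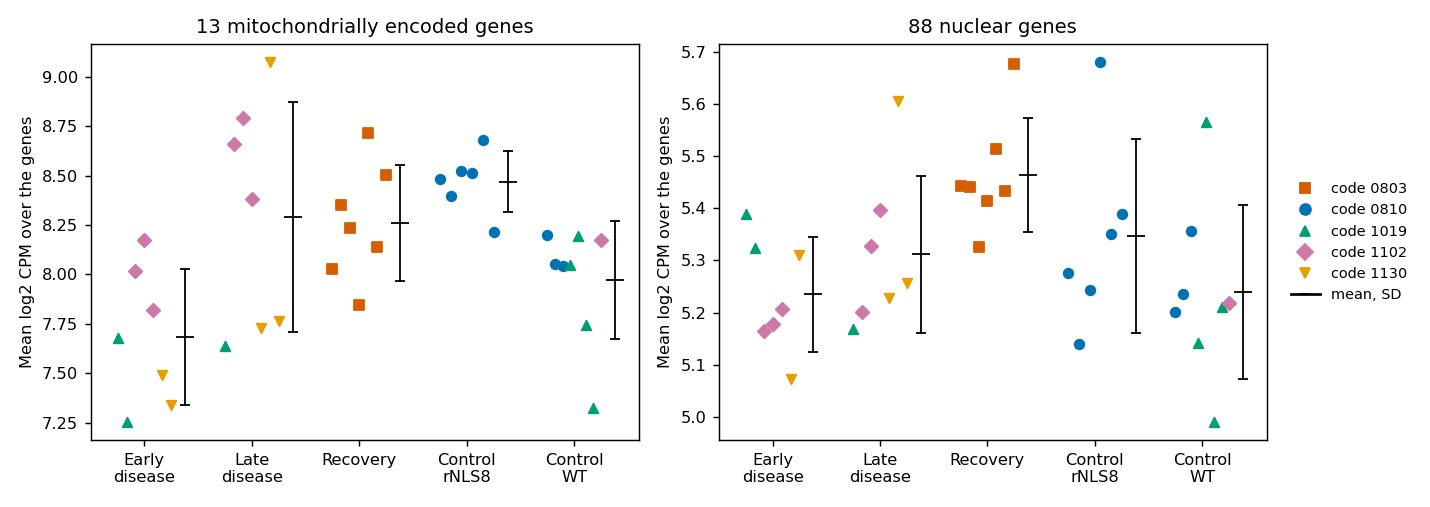
Mean log2 CPM of the 13 mitochondrially encoded genes and of the 88 nuclear genes in each library, for early disease, late disease, recovery and the 2 kinds of control, with marker shapes for the 4-digit code and the group mean with its SD as a bar. For the mitochondrial genes the rNLS8 controls (8.22 to 8.68) lie above the WT controls (7.33 to 8.20) by a narrow gap, and late disease spans 7.64 to 9.07. The rNLS8 controls are all of code 0810.

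In early disease against controls, the first comparison over time off doxycycline, none of the 101 genes passed an adjusted p under 0.05 in edgeR's quasi-likelihood test, where 0.00741% of all 13501 genes tested were called, that is 1 gene. At an unadjusted p under 0.05 stood 10 of the 13 mitochondrial genes and 4 of the 88 nuclear genes, against 12.6% of all genes. All 13 mitochondrial genes had a lower fitted level in early disease, with a median log2 fold change of -0.46 against -0.0024 over all genes, and 70 of the 88 nuclear genes had a lower one, with a median of -0.067 that turned to 0.20 on log2(TPM + 1), where the median of all genes was 0.22. The gene with the lowest p was mt-Nd4, a proton-pumping core subunit of complex I. It ran from 234 through 305 to 406 CPM in early disease, against 253 through 460 to 622 CPM in controls. Of the 7 early disease values, 6 lie within the range of the controls, in its lower part, and 1 lies below it. Its log2 fold change was -0.52 ± 0.16 (SE; adjusted p = 0.169, edgeR).

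Log2 fold changes of the 13 mitochondrial genes in early disease ran from -0.88 for mt-Nd4l to -0.073 for mt-Co3. The lowest p of complex V belonged to mt-Atp6, which averaged 582 ± 132 CPM in early disease and 873 ± 240 CPM in controls (SD, n = 7 and 14; log2 fold change -0.59 ± 0.20, adjusted p = 0.206, edgeR). In complex IV, mt-Co2 had a log2 fold change of -0.52 and mt-Co1 of -0.44, with adjusted p of 0.228 and 0.249 in edgeR, while mt-Co3 was nearest to 0. The mt-Cytb value was -0.38, and that of mt-Nd2 was -0.60. The size of the median depended on the controls and on the fit. It was -0.76 against the 6 rNLS8 controls, where 6 of the 13 genes (mt-Nd2, mt-Nd4, mt-Co1, mt-Co2, mt-Atp8 and mt-Atp6) passed the threshold, and -0.30 against the 8 WT controls, where none did. Against the 5 WT controls that share codes with early disease it was -0.22, with none called. With all 14 controls it was -0.13 with a term for the TPM missing from the table, -0.32 with the code as a term and -0.20 with limma on log2(TPM + 1), again with none called.

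Nuclear subunits differed little between early disease and controls. Per complex the median log2 fold changes were -0.049 for complex I, -0.091 for complex II, -0.099 for complex III, -0.070 for complex IV and -0.066 for complex V. The lowest p of each belonged to Ndufb6 (-0.29), Sdhc (-0.29), the Rieske iron-sulphur gene Uqcrfs1 (-0.23), Cox6a1 (-0.17) and Atp5g2 (-0.20), with adjusted p of 0.305 to 0.509 in edgeR. Of the fixed subunits, Atp5b stood at 0.016, Sdha at -0.020 and Cox4i1 at -0.040, each smaller than its SE.

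Of the comparisons fitted between disease groups, late against early disease showed the wider difference of the mitochondrial genes. Recovery was not set against early disease, and its mean log2 CPM of these genes, given above, was near that of late disease. All 13 had a higher fitted level in late disease, with log2 fold changes of 0.48 to 1.19 and a median of 0.60, against 0.030 over all genes. At an unadjusted p under 0.05 stood 12 of the 13, against 14.2% of all genes, but none of the 101 genes passed the adjusted threshold, where 0.741% of all genes were called. Closest was mt-Nd5, another pumping subunit of complex I, which ran from 286 through 353 to 712 CPM in late disease, against 193 through 265 to 342 CPM in early disease. The groups overlap between 286 and 342 CPM, and 3 late disease libraries lie above 500 CPM. Its log2 fold change was 0.68 ± 0.19 (SE; adjusted p = 0.0652, edgeR). For mt-Nd6, the protein gene on the other strand, the means were 81.6 ± 34.5 CPM in late disease and 51.0 ± 10.7 CPM in early disease (SD, n = 7 each; adjusted p = 0.0911, edgeR).

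The late disease spread followed the 4-digit code in part. Within code 1102 the mean log2 CPM of the 13 genes was 8.66, 8.79 and 8.38 in late disease, against 8.02, 8.18 and 7.82 in early disease, with no overlap. Within code 1130 it was 7.73, 9.07 and 7.77 in late disease, against 7.49 and 7.34 in early disease. Within code 1019 the 1 late disease library stood at 7.64, against 7.68 and 7.25 in early disease. With the code as a term in the fit the median was 0.59, and again none of the 13 was called. The 3 late disease mice of code 1102 were all female and the other 4 all male, so sex and code cannot be told apart within late disease. In code 1130 the 2 early disease mice were female and the 3 late disease mice male, so stage and sex cannot be told apart there. The early disease mice of code 1102 were 1 female and 2 males.

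Of the nuclear genes, 67 of 88 (76.1%) had a higher fitted level in late than in early disease, beside 54.2% of all genes. Their median log2 fold change was 0.082, against 0.030 over all genes. At an unadjusted p under 0.05 stood 8 of the 88 (9.09%), below the 14.2% of all genes. In complex IV 13 of 13 were higher, with a median of 0.22, and complexes II and III had 4 of 4 and 8 of 8 higher with medians of 0.15 and 0.074. The lowest p belonged to Cox7c, a small structural subunit of complex IV. It ran from 38.9 through 52.6 to 73.6 CPM in late disease, against 34.5 through 36.5 to 53.4 CPM in early disease. Early disease replicate 1 alone, at 53.4 CPM, lies above the late disease median, and the other 6 lie between 34.5 and 41.7 CPM. Its log2 fold change was 0.46 ± 0.13 (SE; adjusted p = 0.0667, edgeR).

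**Figure D3:**
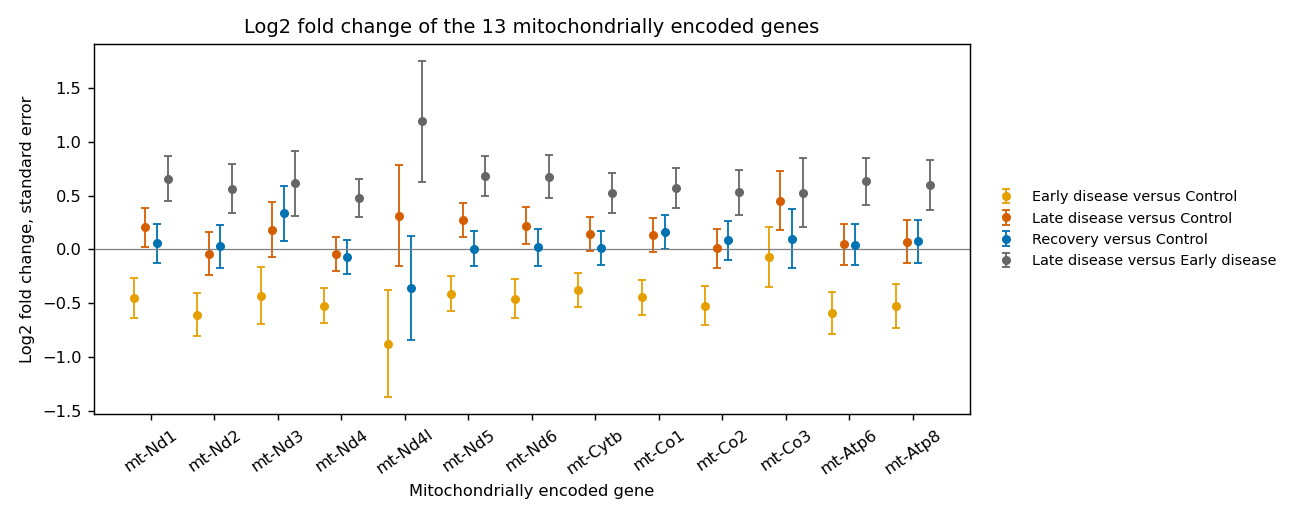
Log2 fold change with its SE of each of the 13 mitochondrially encoded genes in early disease, late disease and recovery against controls, and in late against early disease. All 13 lie below 0 in early disease (median -0.46) and above 0 in late against early disease (median 0.60), and none passed the adjusted threshold.

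Late disease against controls gave no call among the 101 genes, although 15.4% of all genes tested were called there, 9.01% as higher and 6.39% as lower. The nuclear genes were split, with 49 higher and 39 lower fitted levels and a median log2 fold change of 0.013, against 0.019 over all genes, which became -0.042 against the 6 rNLS8 controls. At an unadjusted p under 0.05 stood 12 of the 88, against 29.4% of all genes. The mitochondrial genes had a median of 0.15, with 11 of 13 higher and none at an unadjusted p under 0.05. Their direction depended on the controls: the median was 0.34 against the 8 WT controls, where mt-Co3 was called, beside 7.58% of all genes in that fit. It was -0.11 against the 6 rNLS8 controls, where no mitochondrial gene was called.

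The nuclear gene with the lowest p in late disease was Cox7a2l, which encodes a factor that joins complexes III and IV into supercomplexes. It ran from 35.04 through 50.9 to 104 CPM in late disease, against 34.5 through 42.0 to 57.6 CPM in controls. Late disease replicate 6 alone, at 104 CPM, lies above every control. The log2 fold change was 0.35 ± 0.12 (SE; adjusted p = 0.0516, edgeR). Ndufs1, the largest iron-sulphur subunit of complex I, averaged 71.3 ± 10.6 CPM in late disease and 58.9 ± 9.51 CPM in controls (SD, n = 7 and 14; adjusted p = 0.0551, edgeR). Cox4i1 averaged 161 ± 50.6 CPM in late disease and 130 ± 22.6 CPM in controls (adjusted p = 0.0686, edgeR), and here too replicate 6 was the highest, at 269 CPM. This library also held the lowest summed microglial markers of late disease, at 47030 CPM, and the highest summed monocyte markers, at 158 CPM. Which genes made up that monocyte sum, and the part of either sum in the values of this library, was not tested. Late disease replicate 1 had nearly as low a microglial sum, at 49420 CPM. It was the lowest of late disease in the mean log2 CPM of the nuclear genes, at 5.17. In this comparison 12 of the 13 nuclear complex IV genes had a higher fitted level, with a median of 0.12. Medians for the other complexes were -0.017 for I, 0.064 for II, 0.012 for III and 0.026 for V, and the associated proteins had -0.19, with Ndufaf5 lowest at -0.78 (adjusted p = 0.0867, edgeR).

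Recovery against controls was the comparison in which members of the set were called: Atp5e, Ndufb11 and Atp5k rose, and none fell, where 3.98% of all genes were called, 2.87% as higher and 1.10% as lower. The 3 are 3.41% of the 88 nuclear genes, near the share of all genes. At an unadjusted p under 0.05 stood 35 of the 88, against 17.4% of all genes, and 78 of the 88 had a higher fitted level in recovery, with a median log2 fold change of 0.16 against -0.011 over all genes. The nuclear median stayed between 0.10 and 0.29 under every alternative fitted. The mitochondrial genes had a median of 0.044, none at an unadjusted p under 0.05, and this median was 0.28 against the 8 WT controls and -0.19 against the 6 rNLS8 controls. Early disease, late disease and recovery were each set against the same 14 controls.

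Atp5e encodes the epsilon subunit in the central stalk of the ATP synthase. It stood at 26.4 CPM in the lowest recovery library, 34.6 at the median and 52.2 in the highest, against 20.0, 26.2 and 38.8 CPM in controls. The groups overlap from 26.4 to 38.8 CPM, and recovery replicate 9 alone lies above that. The log2 fold change was 0.40 ± 0.12 (SE; adjusted p = 0.0390, edgeR).

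Ndufb11, an X-linked accessory subunit in the membrane arm of complex I, ran from 37.3 through 38.4 to 49.5 CPM in recovery, against 24.3 through 32.9 to 43.6 CPM in controls. The recovery libraries lie in the upper part of the control range or above it, and replicates 7 and 9 stand apart at 49.5 and 48.8 CPM. The log2 fold change was 0.33 ± 0.094 (SE; adjusted p = 0.0411, edgeR).

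Atp5k encodes subunit e, a small membrane subunit at the interface of ATP synthase dimers. It ran from 11.7 through 14.7 to 21.1 CPM in recovery, against 7.92 through 11.5 to 14.4 CPM in controls. Of the 7 recovery libraries, 4 lie above the highest control. The log2 fold change was 0.38 ± 0.11 (SE; adjusted p = 0.0488, edgeR).

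The calls stood near the threshold, and leaving out 1 library often undid them. Leaving out recovery replicate 9 alone, log2 fold changes became 0.30 for Atp5e, 0.28 for Ndufb11 and 0.28 for Atp5k, with adjusted p of 0.189, 0.142 and 0.216, so that none of the 101 was called. Over the 21 fits that leave out 1 recovery or control library each, Ndufb11 was called in 9, Atp5e in 7 and Atp5k in 6. Against the 6 rNLS8 controls alone none was called, and against the 8 WT controls alone 4 were (Ndufa2, Atp5e, Ndufb11 and Cox7a2). Of all genes, 5.62% were called against the 6 rNLS8 controls and 2.2% against the 8 WT controls.

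By complex, the higher values in recovery were spread over the nuclear subunits of several complexes. All 13 nuclear complex IV genes had a higher fitted level, with log2 fold changes of 0.16 to 1.26 and a median of 0.29, and 10 of them an unadjusted p under 0.05. Cox4i1 averaged 168 ± 17.1 CPM in recovery and 130 ± 22.6 CPM in controls (SD, n = 7 and 14; adjusted p = 0.0561, edgeR). Cox5a, Cox5b, Cox6a1, Cox6b1, Cox7a2 and Cox7c had log2 fold changes of 0.25 to 0.31, with adjusted p of 0.0901 to 0.133 in edgeR. In complex I 35 of 37 nuclear genes were higher with a median of 0.15, in complex III 7 of 8 with 0.19, and in complex V 15 of 16 with 0.16. In complex III the lowest p belonged to Uqcrq, a small ubiquinone-binding subunit, at 41.6 ± 5.46 CPM in recovery and 32.8 ± 5.70 CPM in controls (adjusted p = 0.0514, edgeR). Complex II had a median of 0.052, with the iron-sulphur gene Sdhb at 0.26 and Sdha at -0.0017, and the large catalytic genes Atp5a1 and Atp5b of complex V stood at 0.020 and 0.093.

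**Figure D4:**
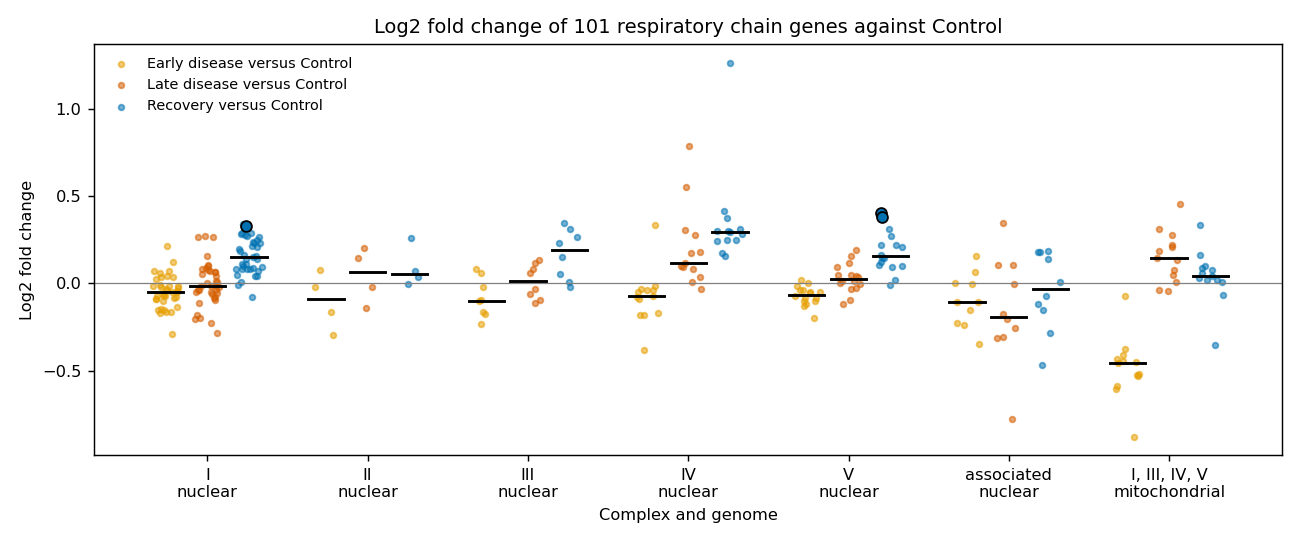
Log2 fold change of each of the 101 genes by complex and genome, in early disease, late disease and recovery against controls, with the median of each set as a line and called genes outlined. In recovery all 13 nuclear complex IV genes lie above 0 (median 0.29), and the 3 outlined genes are Atp5e, Ndufb11 and Atp5k.

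The widest fold change of a nuclear subunit in recovery belonged to Cox6a2, the muscle isoform in complex IV, and it was also the most uneven. Its recovery values were 8.75, 4.59, 4.05, 18.1, 27.8, 12.6 and 28.6 CPM in replicates 2, 3, 4, 5, 7, 8 and 9, against 1.58 through 4.21 to 16.0 CPM in controls. Replicates 5, 7 and 9 lie above every control, and replicates 3 and 4 lie near the control median. The log2 fold change was 1.26 ± 0.40 (SE; adjusted p = 0.0670, edgeR). The widely expressed Cox6a1, at 0.30, was more uniform.

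Markers of other cell types moved with recovery. Of the neutrophil markers tested, 10 of 11 rose, of the monocyte markers 8 of 9, of the border macrophage markers 2 of 8 and of the endothelial markers 2 of 3. Summed neutrophil markers were 793 to 7753 CPM in recovery, with a median of 2501, against 455 to 853 CPM in controls, where most of the sum is Csf3r, at 567 ± 85.4 CPM, and Mpo is at 0 in all 14. Summed monocyte markers were 71.6 to 622 CPM in recovery, against 6.51 to 26.3 CPM in controls. Summed border macrophage markers were 8.12 to 59.2 CPM in recovery, against 1.66 to 12.8 CPM in controls. F13a1, 1 of the 2 border macrophage markers that rose, is also on the monocyte list and so enters both sums. It averaged 9.36 ± 10.1 CPM in recovery and 0.826 ± 1.39 CPM in controls. Summed endothelial markers were 110 to 174 CPM in recovery, against 85.7 to 137 CPM in controls. Most of the endothelial sum is Slc2a1, at 118 ± 21.4 CPM in recovery and 90.7 ± 11.1 CPM in controls. Cldn5 is at 0 in all recovery libraries, and the third endothelial marker tested had a lower fitted level (log2 fold change -1.05). Recovery replicate 9, highest for Atp5e, Atp5k and Cox6a2, had 7004 CPM of neutrophil markers, while replicate 3, with the most at 7753 CPM, stood at 37.3 CPM for Ndufb11 and 32.2 CPM for Atp5e, the lowest and the next to lowest of the 7. The part of these cells in the values of the members was not tested.

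**Figure D5:**
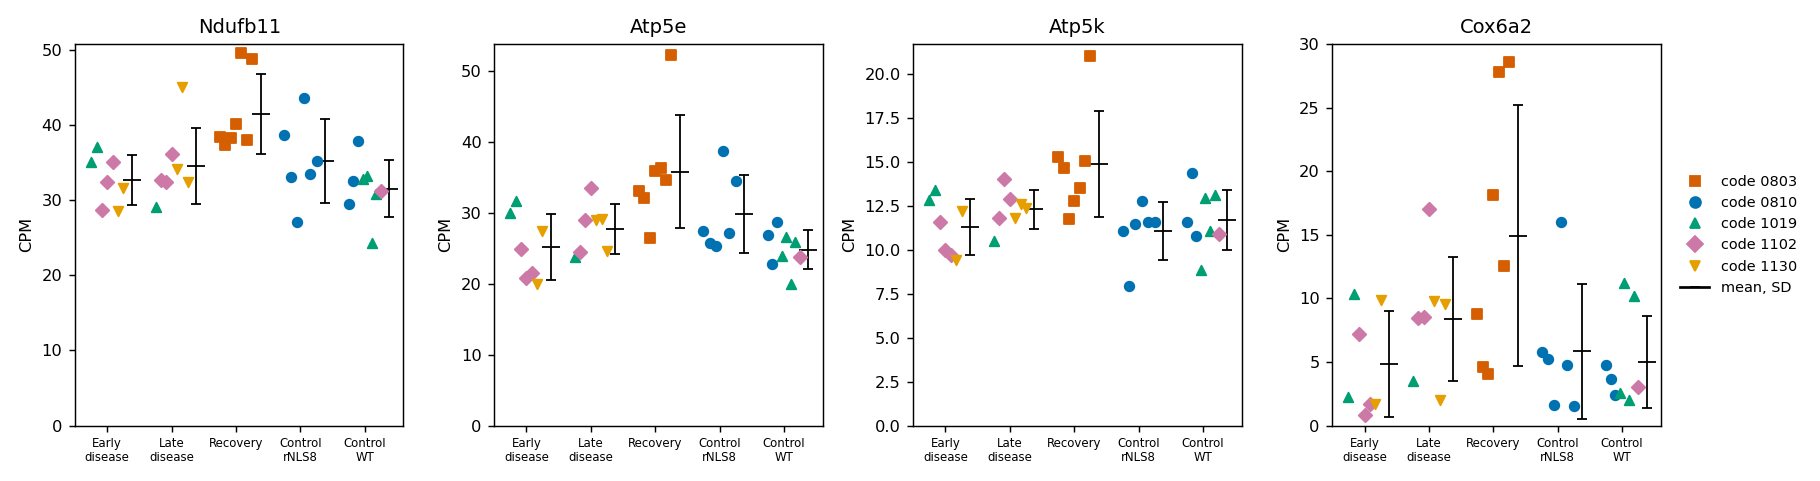
CPM in each library of Ndufb11, Atp5e, Atp5k and Cox6a2 in early disease, late disease, recovery and both kinds of control, with group means and SD. Recovery means are 41.5 CPM for Ndufb11, 35.8 for Atp5e, 14.9 for Atp5k and 14.9 for Cox6a2, against 33.1, 27.0, 11.4 and 5.35 CPM in all controls.

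Recovery was also set against late disease, the state from which these mice were returned to doxycycline. None of the 101 genes was called, where 0.585% of all genes were. Of the nuclear genes 77 of 88 had a higher fitted level in recovery, with a median log2 fold change of 0.15 against -0.027 over all genes, and 14 stood at an unadjusted p under 0.05, against 16.6% of all genes. The lowest p belonged to Ndufb3, an accessory subunit of complex I, at 39.4 ± 7.61 CPM in recovery and 31.3 ± 2.33 CPM in late disease (SD, n = 7 each; log2 fold change 0.33 ± 0.11, adjusted p = 0.130, edgeR). Atp5e stood at 0.36 (adjusted p = 0.176, edgeR) and the c subunit genes Atp5g1, Atp5g2 and Atp5g3 at 0.24, 0.21 and 0.099. The mitochondrial genes gave a median of -0.023, with 5 higher and 8 lower and none at an unadjusted p under 0.05.

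Within code 0810, the 6 rNLS8 mice kept on doxycycline were compared with the 3 WT mice, which asks whether the genotype alone goes with a difference. None of the 101 genes was called, where 0.00772% of all 12958 genes tested were, that is 1 gene. All 13 mitochondrial genes had a higher fitted level in rNLS8 controls, with log2 fold changes of 0.16 to 0.98 and a median of 0.34, and 7 stood at an unadjusted p under 0.05, against 3.92% of all genes. The lowest p belonged to mt-Atp6, at 1069 ± 179 CPM in rNLS8 controls (SD, n = 6) and 787 ± 4.93 CPM in WT controls (SD, n = 3). Its groups did not overlap, and its log2 fold change was 0.44 ± 0.14 (SE; adjusted p = 1, edgeR). These mice differ in doxycycline history as well as in genotype, so the 2 cannot be told apart. The nuclear genes had a median of 0.077, with 61 of 88 higher.

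The effect of group was also compared between the sexes by an interaction term. No gene of the 13501 was called in early disease, late disease or recovery, and 2, 4 and 6 of the 101 members stood at an unadjusted p under 0.05, beside 329, 668 and 706 of all genes. The interaction is the effect in males minus the effect in females. In late disease it was negative for all 13 mitochondrial genes, with a median of -0.57 on the log2 scale. Adjusted p there were at least 0.977 in edgeR, and the sexes of late disease differ in code as given above. In recovery the interaction was negative for 76 of the 88 nuclear genes, with a median of -0.23 against 0.020 over all genes. Their adjusted p were at least 0.9 in edgeR.

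Genes that serve the respiratory chain but lie outside the set were followed as lists. In late disease against controls, where 9.01% of all genes were called as higher and 6.39% as lower, 4 of 40 assembly factors outside the Nduf names fell and none rose: Tmem70, which assists ATP synthase assembly, at a log2 fold change of -0.58 (adjusted p = 0.00257, edgeR), the complex II factor Sdhaf4 at -0.46, and the complex IV factors Cox20 and Coa3 at -0.39 and -0.35. Their list had a median of -0.16. Cycs, which encodes cytochrome c, fell to 25.5 ± 5.09 CPM in late disease, against 34.0 ± 7.05 CPM in controls (SD, n = 7 and 14; log2 fold change -0.41, adjusted p = 0.0305, edgeR), the 1 called gene of 10 other carriers. Of 17 genes for mitochondrial DNA transcription and replication, the polymerase subunit Polg2 (0.61) and the single-strand binding protein Ssbp1 (0.46) rose and the nuclease Mgme1 (-0.59) fell.

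On a list of 13 regulators of mitochondrial biogenesis and related factors, 4 rose in late disease and none fell. That is 30.8%, beside 15.4% of all genes in either direction and 9.01% as higher. Hif1a, the hypoxia-response factor, is 1 of the related factors and not itself a biogenesis regulator. It averaged 227 ± 48.4 CPM in late disease and 156 ± 15.5 CPM in controls (SD, n = 7 and 14; log2 fold change 0.55 ± 0.091, adjusted p = 0.00013, edgeR). The coactivator Ppargc1b rose by 1.28, but unevenly and at a low level, with 6.91 ± 6.84 CPM in late disease and 2.85 ± 1.42 CPM in controls. Pprc1 rose by 0.44 and the mitochondrial deacetylase Sirt3 by 0.57. Among genes of the tricarboxylic acid cycle, Ogdh, a subunit of the oxoglutarate dehydrogenase complex, rose by 0.38 (adjusted p = 0.00795, edgeR). Of 24 genes for carriers, import and mitochondrial dynamics, 4 rose, among them the chaperone Hspa9 (0.45) and the phosphate carrier Slc25a3 (0.39), and Vdac3 fell by 0.33 on the log2 scale. The mitochondrial ribosome had 2 of 80 genes called as higher and 10 as lower, together 15.0% of the list and near the share of all genes, with Mrpl35 lowest at -0.72. Of the cytosolic ribosomal protein genes 45 of 82 rose (54.9%), with a median of 0.42. Of the 12 microglial markers 5 fell in the same comparison, among them Tmem119 (-0.72) and P2ry12 (-0.62), and 1 rose, with a median of -0.16 over the list. Of the monocyte markers 2 of 9 rose, Fn1 and Ms4a4c. In fitted level 5 of the 9 were higher and 4 lower, with a median of 0.202. Fn1 averaged 33.84 CPM in late disease, with an SD larger than this mean, and 1.75 CPM in controls. Ly6c2 did not rise, at 0.159 CPM in late disease and 0.203 CPM in controls. Summed levels of the list were 32.0 to 158 CPM in late disease, against 6.51 to 26.3 CPM in controls. The part of these shifts in the members' values was not tested.

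In recovery against controls, called genes of these lists were fewer. Mrpl27 (0.55) and Mrpl54 (0.49) of the mitochondrial ribosome rose, as did Prdx5, a mitochondrial peroxidase, at 123.2 ± 22.5 CPM in recovery and 90.7 ± 16.0 CPM in controls (SD, n = 7 and 14; log2 fold change 0.45, adjusted p = 0.0300, edgeR), and 24 of 82 cytosolic ribosomal protein genes, with a median of 0.38. In late against early disease Hif1a rose by 0.51 (adjusted p = 0.0201, edgeR). In early disease against controls no gene of any list was called.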

How the data were processed

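The authors deposited expected counts per gene for 35 libraries, not normalized, and TPM values for the same genes. The build was mm10 and the tools RSEM and DESeq2, per the submitters' processing notes; no source used here gives a version or setting. Libraries were full-length, low-input, paired-end and without strand, per the labels' protocols, and carry no molecular identifiers named there. Reads shared by near-identical genes are split by estimation, so genes with processed pseudogenes or close paralogs (the Atp5g and Ndufb4 genes, for example) carry that uncertainty. The deposited TPM of a library did not reach the fixed sum of that unit, and what made up the rest was not tested.

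Whole values (tolerance 1e-06) made up 84.67% of the deposited counts; the rest were rounded. Symbols were matched by identifier for 45143 of 45706 genes (GENCODE M21), and the 563 others held at most 0.146% of any library. Groups came from the phenotype labels. The main test used edgeR 4.0.16 under R 4.3.3 (quasi-likelihood F test, TMM, the package's filter on low counts, a model of group and labelled sex over all 35 libraries), with Benjamini-Hochberg adjustment over 13501 genes and calls at an adjusted p under 0.05. Standard errors derive from the F statistic, CPM are counts scaled to the TMM-adjusted library size, and ± is an SD unless named SE. The test was tried on simulated counts first. The labelled sex differed from a deposited design table in 2 libraries, and the table's sex was an alternative.

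The members, the lists and the tests were chosen with earlier results of these data known, so counts over the members carry no test of their own. Named genes were all 13 mitochondrial ones, 11 fixed subunits, the isoform sets, and per complex and genome up to 4 called genes with the largest change or, with none called, the gene with the lowest p. Some libraries and subgroups were named after their values were seen. Alternatives were DESeq2 1.42.0, limma 3.58.1 on log2(TPM + 1) and log2(TPM + 0.1), other scaling and filtering, control subsets, batch terms and leaving out each library. Libraries of 1 group never agreed within counting noise in 154 pairs (chi-square per gene 19.58 to 204.68 over genes with at least 20 summed counts), and p-values measure the spread between these libraries, since no label says how the mice were housed or processed.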

Additional observations from a re-analysis of the deposited data

Results flagged for a closer look

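Of 300 sets of 4 to 10 libraries tested for a library far from the others, 36 had one whose gap to its nearest neighbour took up more of the group's range than Dixon's 95% limit. Chance alone gives about 1 in 20. The values below are that gap divided by the range.

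Late disease replicate 6 was the highest of its 7 libraries for 13 of the flagged genes. These were the complex I genes Ndufb6 (0.582) and Ndufs4 (0.612), Sdha of complex II (0.703), Uqcrc1 (0.668), Uqcrc2 (0.594) and Uqcrh (0.635) of complex III, Cox4i1 (0.664), Cox5b (0.688), Cox6b1 (0.597), Cox8a (0.592) and Ndufa4 (0.708) of complex IV, Atp5g3 of complex V (0.629), and Cox7a2l (0.675). The same library had the lowest microglial markers of late disease (47030 CPM in sum) and the highest monocyte markers (158 CPM in sum). Late disease replicate 1, with microglial markers nearly as low (49420 CPM), was the lowest of late disease in the nuclear mean log2 CPM, at 5.17. Without replicate 6 the mean log2 CPM of the mitochondrial genes in late disease was 8.16 ± 0.51 (SD, n = 6).

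Recovery replicate 9 was the highest of its 7 libraries for the nuclear mean log2 CPM of complex I (0.649) and complex V (0.573). It was also the highest for Atp5e (0.617), Atp5j2 (0.747), Atp5k (0.618), Cox4i1 (0.710), Cox7a2 (0.664), Sdhb (0.679) and Uqcr11 (0.722). In the same group replicate 7 was lowest for Ndufs4 (0.589) and replicate 5 lowest for mt-Nd5 (0.593).

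Among controls, replicate 11 was the highest of the 4 WT mice at 2 weeks off doxycycline for Atp5g3 (0.947), Ndufs4 (0.849), Uqcrc2 (0.891) and Uqcrh (0.855). Replicate 7 was the highest of the 6 rNLS8 controls for Cox6a2 (0.708), Ndufb6 (0.636), Ndufb8 (0.640) and Uqcrfs1 (0.704), and replicate 5 the lowest for Atp5k (0.645). In early disease replicate 1 was highest for Cox7c (0.619) and replicate 5 for Uqcrfs1 (0.581), and in late disease replicate 1 was highest for Atp5s (0.589).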

How the results depend on the processing

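Counts of called members changed with the processing, and the cause was not tested except where named. In early disease against controls, 13 nuclear genes were called with limma on log2(TPM + 1) and 13 with log2(TPM + 0.1), and 1 (Ndufb6) against the 6 rNLS8 controls, where 6 mitochondrial genes were. Of all genes tested, 10.5%, 10.3% and 5.48% were called in these fits, in that order. Ndufa4 reversed to 0.24 in both limma fits. On unscaled TPM, whose sum differs between libraries, the median log2 fold change of all genes was 0.22 in early disease, 0.18 in late disease and 0.065 in recovery. In late disease against controls, 36 and 35 nuclear and 2 and 2 mitochondrial genes were called with limma at the pseudocounts 1 and 0.1, 7 nuclear genes with rescaled TPM, 3 with DESeq2 (Cox7a2l, Ndufs1 and Ndufaf5), and 1 each with DESeq2's size factors, against the 6 rNLS8 controls, with a term for the TPM missing from the table and with the design table's sex. Of all genes tested, limma called 21.4% and 20.9% there, rescaled TPM 15.3% and DESeq2 9.92%. The fits with 1 nuclear call called 15.5%, 17.1%, 1.87% and 15.5% of all genes, in the order given. Against the 8 WT controls 1 mitochondrial gene was called, beside 7.58% of all genes. In recovery against controls, where the main count was 3 nuclear genes, limma called 37 and 38, limma on rescaled TPM 7, DESeq2 6, the fit with that term 14, the fit without Controls 5 and 7 (chosen after seeing the data, as was the rescaling) 5, and the fits without a filter and against the 6 rNLS8 controls 0. In the same order, these fits called 5.71%, 5.56%, 5.45%, 3.37%, 1.87%, 3.6%, 2.66% and 5.62% of all genes tested. In late against early disease DESeq2 called 1 nuclear (Cox7c) and 2 mitochondrial genes (mt-Nd5 and mt-Nd6), and the fit with the TPM term 1 nuclear gene, beside 1.38% and 1.13% of all genes. Without a filter, rNLS8 against WT controls gave 1 mitochondrial gene, beside 0.265% of all genes.

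Leaving out 1 library at a time gave 0 to 3 nuclear genes in late disease against controls, 0 to 11 in recovery against controls (11 without Control replicate 7, 10 without Control replicate 11 and 0 without recovery replicate 9), and 0 to 1 nuclear and 0 to 3 mitochondrial genes in late against early disease (3 without late disease replicate 1). The median of the mitochondrial genes in late against early disease stayed between 0.47 and 0.62 under the 11 alternatives that keep all libraries, and between 0.43 and 0.71 with 1 library left out. Early disease and late disease medians of these genes ranged from -0.76 to -0.13 and from -0.11 to 0.49.

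Replicate numbers only name the mice: deviations of same-numbered libraries correlated at a median of 0.004 over 37 pairs. With the number as a replicate block, 3 mitochondrial genes were called in early disease (mt-Co1, mt-Co2 and mt-Nd4), 3 nuclear genes in late disease (Sdhb, Ndufs1 and Ndufs8) and 2 in recovery (Atp5d and Cox6a2). Of all genes, 4.54%, 17.9% and 6.76% were called there, in that order. A fit with the code as a term could not be had for recovery.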
